A study of Rattus norvegicus with 6 samples.

Results

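The genes examined encode enzymes that build purine and pyrimidine nucleotides from small precursors. They were chosen by name: Cad, Umps, Ppat, Gart, Paics, Atic, Impdh2, Prps1, Prps2 and Gmps. These genes and the other gene lists below were chosen with earlier results of these data known. Their counts beside those of all genes are therefore description, not an independent test. Of these 10 genes, 8 had at least 1 probe set listed with a single gene symbol, 15 probe sets in all. The whole table held 14217 named genes and 31042 probe sets. The only probe set listed for Paics also carries a second symbol and was not used, and no probe set was listed for Impdh2, so neither was analysed here.

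The values are messenger RNA levels in primary rat Schwann cells, the glia that wrap peripheral axons, cultured from sciatic nerve and carrying the inducible allele RafER. RafER joins the kinase Raf to the estrogen receptor's ligand-binding portion, so that tamoxifen switches the kinase on. All cells were held in a minimal medium before treatment. The vehicle group received ethanol for 24 h (3 arrays) and the tamoxifen group received tamoxifen for 24 h (3 arrays), in experiments that the design text describes as independent, although the source labels speak of treated rats. Every culture carried RafER, so what tamoxifen does alone and what Raf does cannot be told apart.

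De novo synthesis assembles the purine ring directly on an activated ribose, phosphoribosyl pyrophosphate (PRPP), whereas the pyrimidine ring is closed before it is joined to PRPP. Both routes draw on glutamine, aspartate and bicarbonate, and the purine route also takes carbon from glycine and folate. Dividing cells need both products for DNA, RNA and nucleotide cofactors, and Schwann cells divide again after nerve injury.

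All 8 measured nucleotide synthesis genes were higher after tamoxifen, by 1.75-fold (Gmps) to 5.17-fold (Ppat), and the median change was 1.30 log2 units. Here and below each gene is given by its brightest probe set (highest mean over all arrays) unless another is named, a change is the tamoxifen mean minus the vehicle mean of the log2 values (limma, n = 3 arrays per group), and a gene rose or fell when its p, adjusted over all 31042 probe sets, was under 0.05. Of all 14217 genes, 13.9% rose and 17.3% fell by the same test, and the median change was 0.01. On each of the 8 genes the lowest tamoxifen array lay above the highest vehicle array, as was true of 23.7% of all genes. Of the 15 probe sets 14 rose, against 11.5% of all probe sets. The remaining one belongs to Gmps. In a bulk culture, a change in the mix of cells and a change in RNA per cell cannot be told apart.

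**Figure D1:**
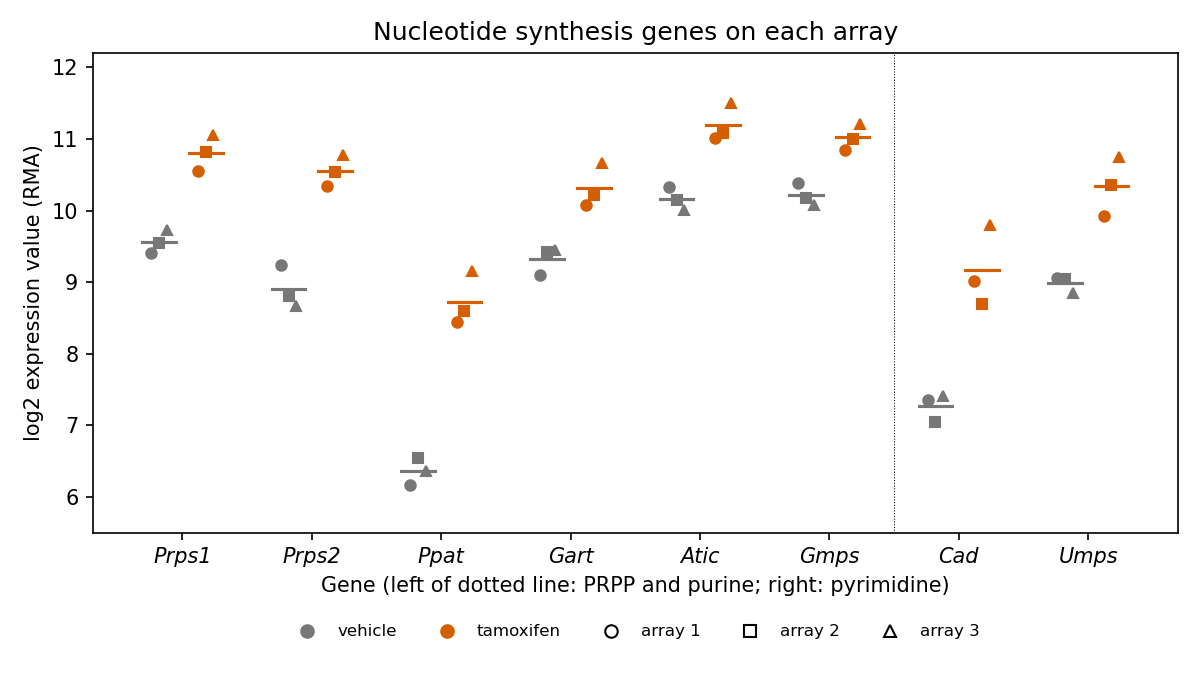
Log2 expression value (vertical axis) of the 8 measured genes on each of the 6 arrays. Grey symbols are vehicle arrays, orange symbols are tamoxifen arrays, the marker shape gives the array number, and the horizontal bars are group means. In every gene the orange symbols lie above the grey ones, and the triangle (tamoxifen array 3) is the highest.

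Sequences of the windows around the start sites are shown for 5 genes as description. Whether they bear on the changes was not tested. The windows come from RefSeq (build GRCr8). Each holds 250 bases before the start site and 50 from it, printed 5′ to 3′ on the gene's strand. Of the 10 genes 9 had a window, and Umps had none. A few short motifs were searched on both strands. GGGCGG, the core of the GC box, was found in 6 of the 9 windows, while 33.1% of all 33469 windows and 55.7% of the 13242 windows of genes on the array held it. CACGTG, the E-box letters that Myc and related factors are known to bind, read the same on both strands and were found in 1 of 9, against 6.42% and 8.62%. CCAAT was found in 4 of 9 (37.5% and 36.8%) and TATAAA in 1 of 9 (14.2% and 8.46%). The TATAAA match and 1 of the CCAAT matches lie in the Impdh2 window, where they share 1 base. They start 8 and 13 bases into the transcript. The 9 windows include those of Impdh2 and Paics, whose change was not analysed here. These are matches of letters only.

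PRPP synthetase, which attaches pyrophosphate to ribose 5-phosphate and so feeds both routes, is encoded by the isozyme genes Prps1 and Prps2. Their windows lie on the X chromosome, at chrX:108920413-108920712 (plus strand) and chrX:30592595-30592894 (plus strand). In the lines below capitals mark GGGCGG or its reverse complement CCGCCC, of which the Prps1 window held 3 and the Prps2 window held 0.
Prps1: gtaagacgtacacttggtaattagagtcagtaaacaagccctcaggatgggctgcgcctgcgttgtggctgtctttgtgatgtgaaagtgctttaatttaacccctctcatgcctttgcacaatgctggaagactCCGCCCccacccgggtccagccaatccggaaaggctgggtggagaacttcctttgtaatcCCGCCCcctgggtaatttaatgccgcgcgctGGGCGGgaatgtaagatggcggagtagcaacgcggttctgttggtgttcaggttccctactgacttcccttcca
Prps2: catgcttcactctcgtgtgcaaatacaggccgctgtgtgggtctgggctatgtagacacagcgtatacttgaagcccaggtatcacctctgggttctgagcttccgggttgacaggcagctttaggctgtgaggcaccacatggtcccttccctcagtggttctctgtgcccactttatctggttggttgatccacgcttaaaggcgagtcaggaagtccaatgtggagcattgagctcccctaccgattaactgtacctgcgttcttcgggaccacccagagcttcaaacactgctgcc
Prps1 had log2 values of 9.41, 9.55 and 9.73 on the vehicle arrays and 10.55, 10.82 and 11.06 on the tamoxifen arrays. The groups did not overlap, and the change was 1.25 ± 0.15 (SE; adjusted p = 0.00246, limma). Its other probe set gave 8.70, 9.39 and 9.61 against 10.25, 10.59 and 10.93, a similar rise of 1.36 ± 0.27 (adjusted p = 0.0131, limma) with a wider spread among vehicle arrays. There, vehicle array 1 was 0.70 below the next value.
Prps2 had 9.24, 8.81 and 8.66 on vehicle arrays and 10.34, 10.54 and 10.77 on tamoxifen arrays, a rise of 1.64 ± 0.18 (adjusted p = 0.00167, limma). The remaining probe sets of Prps2 gave 2.04 ± 0.21, from 6.70, 7.40 and 6.90 to 8.75, 9.10 and 9.27, and 1.91 ± 0.19, from 8.31, 8.57 and 8.31 to 9.93, 10.36 and 10.63. So all 5 probe sets of the PRPP synthetase genes rose, those of Prps1 by 1.25 and 1.36 and those of Prps2 by 1.64 to 2.04. The isozymes are close copies, and no source used here says whether a probe set of one also detects the other.

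The change of Prps2 exceeded that of Prps1 by 0.40 log2 units, but the arrays did not separate. The difference between the log2 values of Prps2 and Prps1 was -0.17, -0.74 and -1.07 on vehicle arrays and -0.21, -0.28 and -0.29 on tamoxifen arrays. A two-sided exact permutation test over the 6 arrays gave p = 0.40, and the smallest value that 3 against 3 arrays allow is 0.1. Between arrays of the same number the differences were -0.04, 0.46 and 0.78, with an SD of 0.41. This was 1 of 2 such pairs, and p adjusted over the pairs was 0.40 for each. With the mean of each gene's probe sets the difference was 0.56. It was 0.64 without vehicle array 1 and 0.19 without vehicle array 3.

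Ppat encodes the amidotransferase that takes PRPP into the purine route, its committed and feedback-inhibited step. It had the greatest change of the 8 genes; the order of the genes by change was not tested beyond the pairs given here. Its log2 values were 6.17, 6.54 and 6.36 on vehicle arrays and 8.44, 8.59 and 9.15 on tamoxifen arrays. The lowest tamoxifen value lay 1.90 above the highest vehicle value, and the rise was 2.37 ± 0.20 (95% interval 1.89 to 2.85; adjusted p = 0.000735, limma). In the RefSeq windows Ppat (chr14:31569760-31570059, plus strand) lies head to head with Paics (chr14:31569986-31570285, minus strand), which encodes a later enzyme of the same route. The windows share 74 bases, in capitals below. The arrays say nothing here of the Paics side, since its probe set was not used.
Ppat: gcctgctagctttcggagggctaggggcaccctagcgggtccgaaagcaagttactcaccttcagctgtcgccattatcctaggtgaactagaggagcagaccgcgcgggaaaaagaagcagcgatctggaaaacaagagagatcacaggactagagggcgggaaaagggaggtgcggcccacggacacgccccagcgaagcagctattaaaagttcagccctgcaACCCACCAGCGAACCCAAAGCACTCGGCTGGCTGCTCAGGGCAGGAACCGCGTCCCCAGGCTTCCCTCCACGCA

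Gart and Atic encode multifunctional enzymes of the middle and end of the route to inosine monophosphate, each with a folate-dependent step. Gart had 9.10, 9.42 and 9.45 on vehicle arrays and 10.07, 10.21 and 10.66 on tamoxifen arrays, a rise of 0.99 ± 0.18 (adjusted p = 0.00888, limma). Its other probe set rose by 1.30 ± 0.15 (adjusted p = 0.00187, limma), from 8.25, 8.45 and 8.50 to 9.44, 9.70 and 9.95. Neither probe set had overlapping groups. Atic had 10.33, 10.15 and 10.01 against 11.01, 11.08 and 11.50. This was a rise of 1.03 ± 0.16 (adjusted p = 0.00488, limma), and the groups were 0.67 apart at their nearest values. The Atic window (chr9:80614061-80614360, plus strand) was the one with CACGTG, starting at 50 bases before the start site and again 17 bases into the transcript. It also held 4 copies of GGGCGG. Capitals mark both motifs.
Atic: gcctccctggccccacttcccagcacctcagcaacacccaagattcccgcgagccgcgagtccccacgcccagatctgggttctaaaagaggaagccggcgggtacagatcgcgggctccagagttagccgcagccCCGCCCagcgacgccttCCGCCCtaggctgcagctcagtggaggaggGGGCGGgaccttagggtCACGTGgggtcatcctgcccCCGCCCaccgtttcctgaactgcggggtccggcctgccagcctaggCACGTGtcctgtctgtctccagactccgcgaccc

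Gmps encodes GMP synthetase, which aminates xanthosine monophosphate with nitrogen from glutamine to give the guanine nucleotide. It had the smallest change of the 8 genes, 0.81 ± 0.13 (95% interval 0.49 to 1.12; adjusted p = 0.00618, limma). Its values were 10.39, 10.18 and 10.07 on vehicle arrays and 10.85, 11.00 and 11.21 on tamoxifen arrays. The nearest arrays, vehicle 1 and tamoxifen 1, were 0.46 apart. Another probe set of Gmps rose by 1.16 ± 0.22 (adjusted p = 0.0106, limma), from 8.99, 9.75 and 9.65 to 10.41, 10.64 and 10.82. The third probe set had low values throughout, 4.12, 4.17 and 3.97 against 4.24, 4.38 and 4.27, and a difference of 0.21 ± 0.09 that did not pass (95% interval -0.02 to 0.43; adjusted p = 0.167, limma). The file holds no detection calls, so such a low level can be background.

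**Figure D2:**
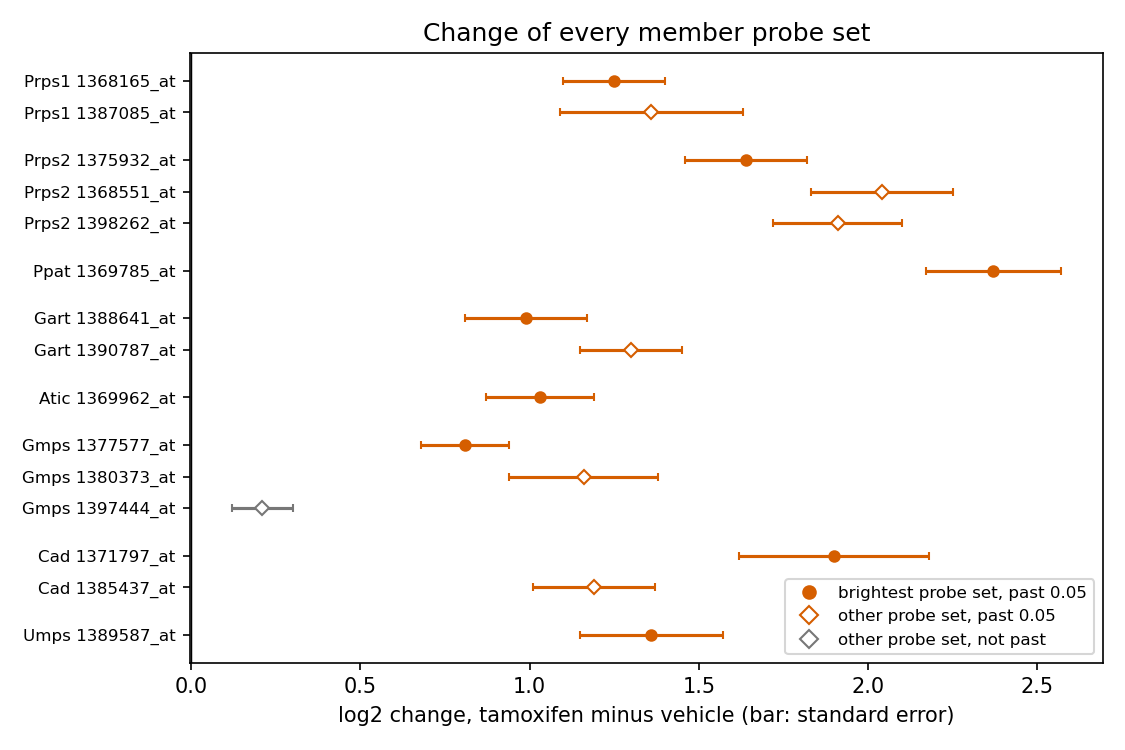
Change of each of the 15 probe sets (horizontal axis, log2, tamoxifen minus vehicle, with the standard error as a bar), grouped by gene in pathway order. Filled circles are the brightest probe set of a gene, open diamonds the others, and grey marks the 1 probe set that did not pass, the dim one of Gmps at 0.21.

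Cad encodes the multifunctional protein that carries out the opening steps of pyrimidine synthesis, from glutamine and bicarbonate to dihydroorotate. Its protein is a known substrate of ERK, the kinase at the end of the Raf cascade, but the arrays measure only the transcript. The log2 values of Cad were 7.36, 7.05 and 7.41 on vehicle arrays and 9.01, 8.69 and 9.80 on tamoxifen arrays, a rise of 1.90 ± 0.28 (adjusted p = 0.0044, limma). The tamoxifen arrays differed among themselves more than for any other of the 8 genes (SD 0.57). The dimmer probe set had 5.90, 6.21 and 6.34 against 7.23, 7.11 and 7.68 and gave a smaller rise of 1.19 ± 0.18 (adjusted p = 0.00524, limma). The window of Cad (chr6:31034987-31035286, minus strand) held GGGCGG at 2 places, 56 and 35 bases before the start site, on the opposite strand as the capitals show.
Cad: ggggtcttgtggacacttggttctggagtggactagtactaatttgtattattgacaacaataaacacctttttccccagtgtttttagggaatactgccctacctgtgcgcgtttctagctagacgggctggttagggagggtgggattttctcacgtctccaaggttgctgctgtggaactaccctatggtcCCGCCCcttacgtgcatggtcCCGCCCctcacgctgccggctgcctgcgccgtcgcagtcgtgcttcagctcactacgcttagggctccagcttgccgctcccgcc
Umps encodes the enzyme that joins orotate to PRPP and decarboxylates the product to uridine monophosphate. Its values were 9.06, 9.04 and 8.85 on vehicle arrays and 9.92, 10.35 and 10.75 on tamoxifen arrays. The vehicle arrays lay within 0.22 of each other, the tamoxifen arrays spread over 0.83, and the rise was 1.36 ± 0.21 (adjusted p = 0.00493, limma).

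The change of Cad was 0.54 above that of Umps by the brightest probe sets. The difference between their log2 values was -1.70, -1.99 and -1.44 on vehicle arrays and -0.90, -1.66 and -0.94 on tamoxifen arrays, so the groups overlapped. The two-sided exact permutation test gave p = 0.20. With the mean of both Cad probe sets the difference was 0.19. The 3 values between arrays of the same number were all above 0 (0.80, 0.33 and 0.49).

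**Figure D3:**
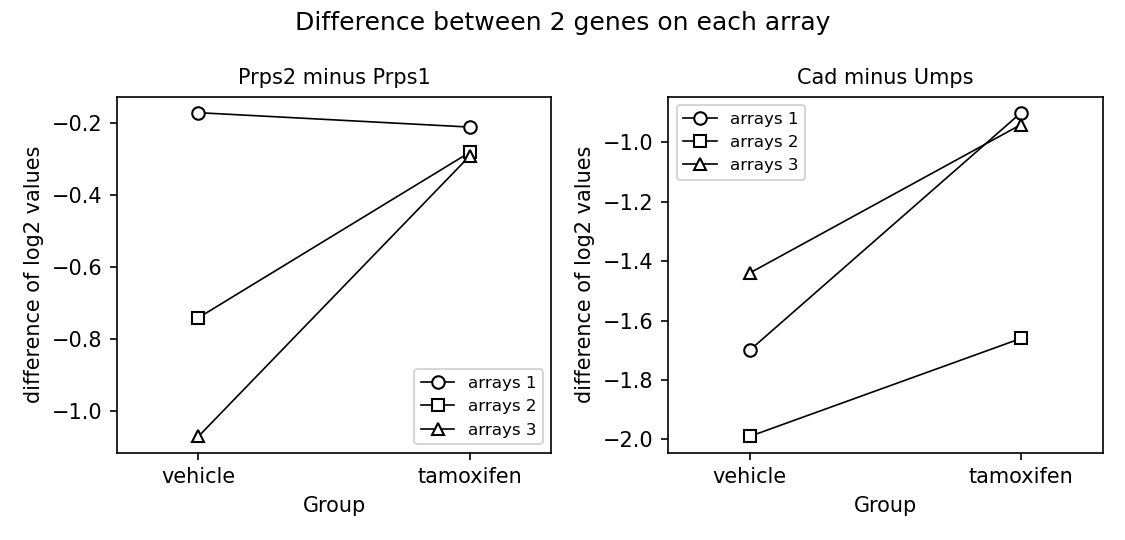
Difference between the log2 values of 2 genes on each array (vertical axis), Prps2 minus Prps1 on the left and Cad minus Umps on the right, with lines joining vehicle and tamoxifen arrays of the same number. In both panels the groups overlap, and on the left the arrays numbered 1 hardly differ (-0.17 and -0.21).

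The arrays of one group did not contribute equally. Tamoxifen array 3 had the highest value for all 8 genes and for 14 of the 15 probe sets. Among the 3365 genes whose tamoxifen arrays all lay above the vehicle arrays, array 3 was the highest for 56.7%. The mean log2 value over the 8 genes was 8.82 to 8.88 on the vehicle arrays, against 10.02, 10.16 and 10.61 on tamoxifen arrays 1, 2 and 3. Without tamoxifen array 3 all 8 genes still rose, with Ppat at 2.16, Cad at 1.58 and Gmps at 0.71. Between vehicle and tamoxifen arrays of the same number every one of the 15 probe sets was higher after tamoxifen. That such arrays share an experiment is assumed here, and a block on the number is called the experiment block or replicate block. Vehicle array 1 had weaker 5′ signal than the rest: in rat control transcripts its 3′ probe sets exceeded its 5′ probe sets by a mean of 0.84 log2 units, where the remaining arrays had 0.16 to 0.27. Without both arrays numbered 1, or with this difference as a covariate, the count of 8 of 8 was the same. Against a minimum fold of 1.5 only Ppat, Cad, Prps1 and Prps2 passed. Atic, Gart, Gmps and Umps did not, with adjusted p between 0.0707 and 0.574 (limma, treat).

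The neighbouring enzymes of both routes were less uniform in their calls. Of 10 other measured genes of PRPP supply and purine synthesis, 3 rose and none fell (limma; 2 were lower at an unadjusted p under 0.05), with a median of 0.18. Without moderation of the variance 1 rose and 1 fell. Some genes of this list and of the pyrimidine list below were dim, with little room for a call. Without dim probe sets (mean log2 value under 6) 8 purine genes were left, with 3 rises, 0 falls and a median of 0.32. Adss2, which starts the branch from inosine monophosphate to adenine nucleotides, rose by 1.35 ± 0.17, and Pfas, whose enzyme acts between steps of the Gart enzyme, by 1.24 ± 0.22. Guk1, the kinase of GMP, rose by 0.42 ± 0.12, a call that the experiment block removed (adjusted p = 0.0899, limma), as did leaving out vehicle array 2 or 3 or tamoxifen array 2 or 3 (0.125 to 0.152). Without vehicle array 2 the list had 2 rises and 1 fall. Adsl, which acts at more than 1 step of the route, did not pass (0.40 ± 0.18, from 9.77 ± 0.09 to 10.17 ± 0.36, SD; adjusted p = 0.168, limma). Nor did Prpsap1 (0.24 ± 0.13) and Prpsap2 (-0.15 ± 0.10), whose products associate with PRPP synthetase. Of 10 other measured pyrimidine genes 3 rose and 2 fell, with a median of 0.29. Without dim probe sets 8 were left, with 3 rises, 2 falls and a median of 0.31. Dhodh, the mitochondrial enzyme between Cad and Umps, rose by 0.78 ± 0.14. The nucleoside diphosphate kinase genes Nme1 and Nme2 rose by 1.90 ± 0.10 and 2.04 ± 0.16, while Nme3 fell by 1.29 ± 0.16. The CTP synthetase gene Ctps1 had a difference of 0.06 ± 0.09 (adjusted p = 0.671, limma). Its paralog Ctps2 fell by 0.71 ± 0.15 and was named after its value was seen. Nme1 and Nme2 are close copies, and their signals may not be separate.

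**Figure D4:**
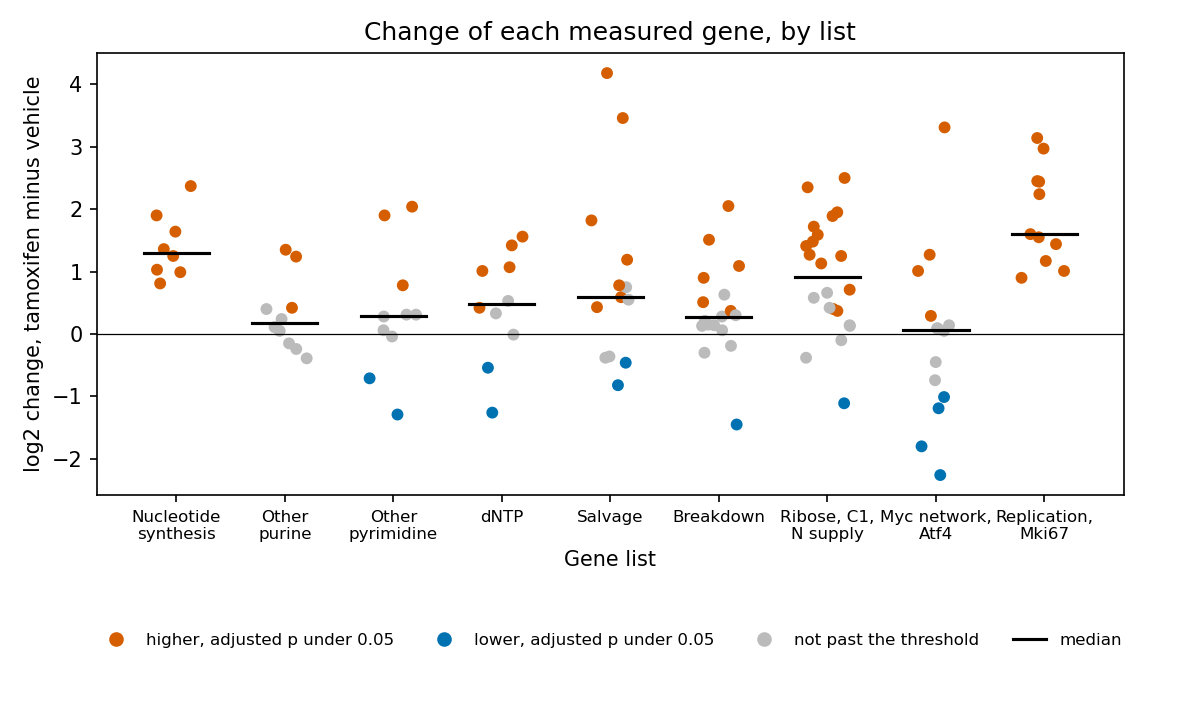
Change of each measured gene (vertical axis, log2, tamoxifen minus vehicle; 1 point per gene, by its brightest probe set) in the nucleotide synthesis genes and 8 related lists, with the median as a black bar. Orange points rose, blue points fell and grey points did not pass; the nucleotide synthesis column and that of DNA replication genes with Mki67 hold orange points only.

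The list for supply of ribose, one-carbon units and nitrogen to these routes had 14 rises and 1 fall among 22 measured genes. Its median was 0.92. Shmt2, which makes one-carbon units from serine in mitochondria, rose by 2.50 ± 0.12, and Mthfd2, the next enzyme there, by 2.35 ± 0.23. The ribose phosphate isomerase gene Rpia rose by 1.89 ± 0.24 (0.33 by its dimmer probe set, which did not pass). Asns, counted among the rises, changed by 1.95 ± 0.15. Its enzyme uses aspartate and glutamine to make asparagine, so it draws on these precursors and does not supply them. Without moderation of the variance 8 of the 22 rose, and without vehicle array 1 there were 2 falls. In salvage, which recovers free bases and nucleosides, 7 of 13 rose and 2 fell, and without moderation 2 rose and 0 fell. Uridine phosphorylase Upp1 rose by 4.18 ± 0.35, Mtap by 3.46 ± 0.24 and the nucleoside transporter genes Slc29a1 and Slc29a2 by 1.82 ± 0.29 and 1.19 ± 0.25. Hprt1 and Aprt, which return purine bases to nucleotides with PRPP, rose by 0.59 ± 0.12 and 0.43 ± 0.12, calls lost without tamoxifen array 2 (adjusted p = 0.054 and 0.107, limma) or 3 (0.054 and 0.109). The Aprt call was also lost without any single vehicle array (0.0637 to 0.0977). Without tamoxifen array 3 the salvage list had 4 rises and 0 falls. Leaving out tamoxifen array 1 or 2, or either of vehicle arrays 1 and 2, also gave 0 falls, and there was 1 fall with the experiment block. For making deoxynucleotides, 5 of 10 rose and 2 fell, and 2 rose without tamoxifen array 2 or 3, and 3 without any single vehicle array. Leaving out tamoxifen array 1 or 3, or either of vehicle arrays 1 and 2, left 1 fall. Without moderation 1 rose and 1 fell. Tk1 rose by 1.56 ± 0.23, Tyms by 1.42 ± 0.32 and Dut by 1.07 ± 0.28, and Dguok fell by 1.26 ± 0.14 (its other probe set gave 0.09, not past the threshold). The Tyms call was lost without tamoxifen array 2 or 3 (adjusted p = 0.0657 and 0.0689, limma), and the Dut call without any single array but tamoxifen 1 (0.0738 to 0.110). Of 17 breakdown genes 6 rose and 1 fell. Ada rose by 2.05 ± 0.35, Gda by 1.51 ± 0.17 and Ampd2 by 1.09 ± 0.15, while Dpyd, which degrades uracil and thymine, fell by 1.45 ± 0.17.

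Values of genes that moved beside the nucleotide synthesis genes were as follows, and their part in the result was not tested. All 10 measured DNA replication genes rose (Top2a 2.97 ± 0.29, Gins1 2.45 ± 0.23, Mcm5 2.44 ± 0.25), as did the proliferation marker Mki67 (3.14 ± 0.44), which is in the same list but acts on mitotic chromosomes. The median of these 11 genes was 1.60. Myc, a transcription factor known to act on many nucleotide synthesis genes, rose by 3.31 ± 0.18, from 8.07 ± 0.12 to 11.38 ± 0.36 (SD, n = 3). Of the 13 measured Myc network genes 3 rose and 4 fell, among them Mycl, which fell by 2.26 ± 0.19, and Mxi1, which fell by 1.80 ± 0.23. Mycn rose by 1.27 ± 0.33, a call lost without any single array but vehicle 3 (adjusted p = 0.0689 to 0.105, limma). The list also held the stress response factor Atf4, which is not of this network and rose by 0.29 ± 0.08, a call lost with the experiment block (adjusted p = 0.0674, limma) and without any single array (0.0702 to 0.136).

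The arrays correlated at 0.984 to 0.995 within groups and at 0.934 to 0.966 between groups. The brightest Schwann cell markers were S100b and Ngfr (Ngfr 12.99 ± 0.49 in vehicle and 11.46 ± 0.51 after tamoxifen, S100b 13.11 ± 0.08 and 12.35 ± 0.45). Of 9 measured Schwann markers 1 rose and 4 fell, and 2 fell without tamoxifen array 2. Without moderation 0 fell, with adjusted p of 0.0514 for Pmp22 and 0.0502 for Mbp (limma without eBayes). The one that rose was Egr2, a transcription factor of myelination, from 5.77, 6.01 and 5.86 to 9.69, 10.12 and 10.18 (4.12 ± 0.15). The myelin genes Pmp22 and Mbp fell by 2.18 ± 0.33 and 1.96 ± 0.29. These 3 genes and Atf4 were named after their values were seen. Ngfr was no longer called without tamoxifen array 2 (adjusted p = 0.0551, limma), nor S100b without any single array but tamoxifen 3 (0.0514 to 0.116). None of 10 macrophage, 7 endothelial or 8 smooth muscle and pericyte markers passed (limma). At an unadjusted p under 0.05, 2, 0 and 2 of them were higher and none was lower. Without dim probe sets (mean log2 value under 6) only 1, 0 and 3 of these markers were left. The dim ones had little room for a call. In the last list 1 rose without vehicle array 2, with trend and robust variance or with array weights, 2 rose with the mean of all probe sets, and 1 rose and 1 fell with the experiment block. The mean log2 values of these lists were 4.94 to 4.97, 4.59 to 4.67 and 6.62 to 6.80 on vehicle arrays and 4.99 to 5.06, 4.63 to 4.75 and 6.55 to 6.79 on tamoxifen arrays. Their brightest genes gave differences of -0.18 (Lyz2), 0.25 (Aif1), 0.03 (Vwf, below 0 with other scalings), 0.11 (Flt1), -0.24 (Mcam) and 0.00 (Acta2, above 0 with quantile normalization and cyclic loess). Of 10 fibroblast markers 2 rose and 3 fell, with means of 7.62 to 7.73 and 7.52 to 7.64. Without tamoxifen array 2, 1 rose and 1 fell. Without dim probe sets (mean log2 value under 6) only 5 fibroblast markers were left, with 1 rise, 3 falls and a median of -0.46. The list means therefore mix bright genes with dim ones. Besides Col1a2, the called fibroblast markers were named after their values were seen. Col3a1 changed by -2.38 ± 0.53 and Col1a1 by -1.23 ± 0.18. In the other direction Fbln1 changed by 1.61 ± 0.14 (0.11 by its dimmer probe set, which did not pass) and Pdgfra by 0.52 ± 0.11. Pdgfra was dim, with means of 4.90 in vehicle and 5.43 after tamoxifen. Postn was at 13.19 ± 0.65 and 13.58 ± 0.31, and Col1a2 fell by 0.46 ± 0.13, a call that the experiment block removed (adjusted p = 0.053, limma), as did leaving out any single array but vehicle 1 (0.0782 to 0.143).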

How the data were processed

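Per the submitters' processing notes, the authors used RMA, with the version not stated in any source used here. RMA corrects background, scales arrays to each other and summarises each probe set, and the deposited values are on a log2 scale (2.99 to 14.58). Low values are compressed by RMA, which makes changes of dim genes look smaller. The number of arrays limits the precision. A limma p-value compares the difference of means with the variance within these 3 and 3 arrays. Except without moderation, that variance is drawn towards a value shared by all probe sets.

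Groups and replicate numbers came from the sample titles, which do not say that a number pairs a vehicle array with a tamoxifen array. After 57 control probe sets were left out, 31042 were fitted with lmFit and eBayes (limma 3.58.1, R 4.3.3), two-sided, without covariates, with Benjamini-Hochberg adjustment across all of them. A gene's symbol came from the platform annotation: 20826 probe sets had 1 symbol, 436 had several and were not named, and the rest were not listed. The fit was also run on simulated data with known changes and independent noise. Those data held no pairing of arrays and no array with weaker 5′ signal, so they cannot show how the fit behaves with these. No single gene was given a permutation test, since 3 against 3 cannot go below 0.1.

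After group means were removed, same-numbered arrays correlated at 0.26, 0.20 and 0.28. The numbers were taken to pair the samples, which no label states, and the block on the number was an alternative. The members, the lists and the alternatives were chosen with earlier results of these data known. Named were all members, up to 4 called genes with the largest change from each other list, 14 fixed genes (3 of them not measured) and the 2 brightest markers of each cell type. Of 4 planned gene pairs, those with Impdh2 and Paics were not analysed here, and no protein sequences were compared.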

Additional observations from a re-analysis of the deposited data

How the results depend on the processing

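The count of 8 of 8 nucleotide synthesis genes rising was 8 with the replicate block, without each single array, without both arrays numbered 1 and with the 3′ minus 5′ covariate. It was also 8 with median centring, quantile normalization and cyclic loess, and with the filter on dim probe sets (mean log2 value under 6). The same held with trend and robust variance, with array weights and with all probe sets of a gene averaged. Leaving out _s_at, _x_at and _a_at probe sets could not change the count, since no member probe set is of these kinds. The count was 7 without moderation (Gart, adjusted p = 0.061, limma without eBayes) and 4 against a fold of 1.5. Of the 14 probe sets that rose, 3 lost the call without moderation and 7 against a fold of 1.5. Besides that of Gart, those lost without moderation were the Gmps probe set at 1.16 and the Prps1 one at 1.36 (adjusted p = 0.0704 and 0.0807, limma without eBayes). The block changed no call of the 8 genes. Over all probe sets, 3574 rose and 4004 fell. Without moderation the numbers were 1957 and 1715, and against a fold of 1.5 they were 833 and 615. Leaving out single arrays gave 2668 (without tamoxifen array 2) to 3771 falls. The difference of change between paired genes ranged from 0.19 to 0.64 (Prps2 minus Prps1) and from 0.40 to 0.79 (Cad minus Umps) without single arrays. Without single arrays Vwf ranged from -0.01 to 0.09 and Acta2 from -0.08 to 0.07. The sign of Vwf turned without vehicle array 1 (0.00), without tamoxifen array 2 (-0.01), with the covariate (0.00), median centring (-0.01), quantile normalization (-0.03) and cyclic loess (-0.03). That of Acta2 turned without vehicle array 2 (0.07) or tamoxifen array 3 (0.05), with quantile normalization (0.06) and with cyclic loess (0.07). The cause was not tested. Over the 19 alternatives the counts of rises and of falls ranged from 1 to 3 and 0 to 1 (other purine), 2 to 4 and 1 to 2 (other pyrimidine), 1 to 6 and 1 to 2 (deoxynucleotide), 2 to 8 and 0 to 3 (salvage), 1 to 7 and 1 to 2 (breakdown), 6 to 15 and 0 to 2 (supply), 1 to 4 and 2 to 6 (Myc network with Atf4), 0 to 1 and 0 to 5 (Schwann) and 1 to 3 and 0 to 3 (fibroblast), and in replication with Mki67 9 to 11 rose.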
